A study of Mus musculus with 108 samples.

Results

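The loci of 6 genes were followed through a reporter screen of mouse blood formation: Tead1, Tead2, Tead3 and Tead4, which encode the DNA-binding TEAD factors, and Yap1 and Wwtr1, which encode their coactivators YAP and TAZ. A locus was the gene body in the GENCODE annotation of mm10 with 100 kb on each side, and every sorted or plasmid fragment that overlapped this window was a member. The rule used gene names and positions, and the 6 genes were taken up with earlier results of these data known. The 6 windows held 2313 of the 1176712 distinct fragments listed in sorted cells, which merged by overlap into 115 of the 58911 distal sites and 34 of the 17854 promoter sites of the series. Distal and promoter are the classes of the deposited files, which set distal fragments more than 1.5 kb from an annotated start. In the GENCODE annotation used here 18 of the 115 distal sites, 10 of them in the Tead2 window, lay within that distance of a coding-gene start.

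The cells were HM-1 mouse ES cells, which carry a non-functional Hprt locus, and all groups derive from this line. Open-chromatin fragments cut by the Tn5 transposase from cells of 5 stages were cloned into the pDONR vector, moved to the pSKB reporter vector upstream of an Hsp68 minimal promoter and Venus-YFP, and integrated at Hprt of the ES cells, which were then differentiated in vitro. The stages were undifferentiated ES cells, FLK1+ hemangioblast cells (HB), an early and a later hemogenic endothelium (KIT+ TIE2+, without CD41 in HE1 and with it in HE2) and hematopoietic progenitors (HP, KIT+ CD41+ and TIE2-). Sorting on YFP gave 4 libraries per stage in each of replicates 1 to 4 (Negative, Low, Medium, High) and 3 per stage in replicate 5 (Negative, Low, Medium/High), 95 in all. There were also 5 pDONR lists and 5 pSKB lists, 1 per vector and stage, and 3 control lists from wild-type HM-1 cells. All reporters sat at Hprt, so a value belongs to the fragment and not to the gene's own chromosomal position, and the lists hold DNA fragments, so no RNA level of a member was measured. Nothing in the sources says whether replicates came from separate cultures, so the p-values measure the spread between these sets, which may be technical.

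Sorted libraries listed from 504 to 131036 distinct fragments, and replicates 1 and 2 held 91.6% of all listings. Below, the positive set of a replicate is the union of its gates other than Negative, and values are distinct fragments per 10000 listed unless said otherwise. Of the fragments listed in the HE1 Negative library of replicate 1, 68.3% were also listed in the HE1 Medium library of replicate 2, and 49.2% of the HE1 Low library of replicate 4 were in the HE1 Negative library of replicate 3. In the 6 loci the first pair shared from 13 to 34 fragments per locus, so HE1 values are also given without these 4 libraries where they matter. Sorted member fragments of all 5 stages were identical most often to fragments of the pDONR lists labelled HE1 and HE2. At HE1 the list of the same stage came first, with 38.8%. Member fragments sorted at HB were identical to a fragment of the pDONR list labelled HB in 7.83% of cases and to the pDONR lists labelled HE1 and HE2 in 26.7% and 34.0%, and the same order held over all sorted fragments of HB (8.91%, 29.1% and 32.9%).

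TEAD proteins bind DNA but activate poorly without a partner. When the kinases of the Hippo pathway are inactive, unphosphorylated YAP and TAZ enter the nucleus and join TEAD on enhancers, often next to AP-1 sites. TEAD factors have been linked to early steps of endothelial and blood development, and RUNX, GATA and ETS factors are the better known regulators of hemogenic endothelium.

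In each locus the distal site with a positive fragment in the most stage and replicate sets (of 25) was taken, ties going to the site with more distinct fragments, and the 300 bases around its centre are shown because these are the member elements that the screen recovered most often. The letters are the plus strand of GRCm38.p6, which is the mm10 build, and capitals mark an exact match to one of the motifs CATTCC (for TEAD), TGANTCA (for AP-1), TGTGGT (for RUNX), AGATAA (for the GATA factors) and CCGGAA (for ETS) on either strand.
Tead1 locus, chr7:112743599-112743898: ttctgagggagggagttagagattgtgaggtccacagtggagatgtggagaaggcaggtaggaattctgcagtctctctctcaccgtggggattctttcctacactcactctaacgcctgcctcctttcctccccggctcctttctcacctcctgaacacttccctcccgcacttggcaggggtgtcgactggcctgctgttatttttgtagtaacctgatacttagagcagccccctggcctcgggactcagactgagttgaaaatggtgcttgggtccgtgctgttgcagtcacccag
Tead2 locus, chr7:45161955-45162254: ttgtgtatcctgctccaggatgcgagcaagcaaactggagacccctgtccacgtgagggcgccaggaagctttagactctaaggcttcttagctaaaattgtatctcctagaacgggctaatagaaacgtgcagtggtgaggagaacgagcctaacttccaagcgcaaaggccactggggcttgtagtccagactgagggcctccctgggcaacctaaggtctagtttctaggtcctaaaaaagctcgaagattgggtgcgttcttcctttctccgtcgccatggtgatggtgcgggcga
Tead3 locus, chr17:28407414-28407713: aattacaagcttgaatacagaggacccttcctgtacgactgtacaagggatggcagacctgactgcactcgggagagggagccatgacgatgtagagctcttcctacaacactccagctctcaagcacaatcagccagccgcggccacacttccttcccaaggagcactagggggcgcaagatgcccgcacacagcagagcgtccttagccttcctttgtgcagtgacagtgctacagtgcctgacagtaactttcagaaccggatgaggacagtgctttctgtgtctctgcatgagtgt
Tead4 locus, chr6:128200577-128200876: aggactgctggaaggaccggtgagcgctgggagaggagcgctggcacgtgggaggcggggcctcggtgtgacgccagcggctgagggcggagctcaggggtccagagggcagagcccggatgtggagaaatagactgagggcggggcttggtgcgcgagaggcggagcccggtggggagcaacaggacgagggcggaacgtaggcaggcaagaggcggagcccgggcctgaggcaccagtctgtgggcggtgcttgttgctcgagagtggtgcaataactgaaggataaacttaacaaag
Yap1 locus, chr9:7914573-7914872: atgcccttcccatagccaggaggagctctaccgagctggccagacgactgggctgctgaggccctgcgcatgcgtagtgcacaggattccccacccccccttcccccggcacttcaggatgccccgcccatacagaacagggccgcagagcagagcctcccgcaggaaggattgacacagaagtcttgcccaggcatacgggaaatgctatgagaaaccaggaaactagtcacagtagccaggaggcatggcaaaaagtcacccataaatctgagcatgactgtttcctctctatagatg
Wwtr1 locus, chr3:57435364-57435663: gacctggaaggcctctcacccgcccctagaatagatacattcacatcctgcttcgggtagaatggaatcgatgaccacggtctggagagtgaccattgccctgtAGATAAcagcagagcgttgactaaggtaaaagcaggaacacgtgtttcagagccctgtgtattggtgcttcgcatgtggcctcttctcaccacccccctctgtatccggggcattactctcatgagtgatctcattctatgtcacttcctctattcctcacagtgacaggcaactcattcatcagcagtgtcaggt
Among these 6 windows only that of Wwtr1 held a match, to the GATA letters. A second Tead3 site, at -17.8 kb, was positive in as many sets as the one shown (12 of 25, with 11 against 27 distinct fragments), and it held the TEAD letters. The Tead1 element lay in an intron of Tead1, the Tead3 element in an intron of Fkbp5, the Wwtr1 element in an intron of Tm4sf4, the Tead4 element over an exon of the long non-coding RNA Gm10010, and the Tead2 and Yap1 elements were intergenic.

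The loci differed in size and in gene content. Tead1 (ENSMUSG00000055320.17, chr7:112679318-112906807, plus strand) had the longest gene body, 227 kb, and 2 other protein-coding genes in its window. Tead2 (ENSMUSG00000030796.17, chr7:45215753-45233644, plus strand) had the shortest, 17.9 kb, and 15 other coding genes, among them the ribosomal protein gene Rpl13a and the cytokine gene Flt3l. Tead3 (ENSMUSG00000002249.21, chr17:28331671-28350817, minus strand) had 5, Tead4 (ENSMUSG00000030353.15, chr6:128224288-128300823, minus strand) 7, Yap1 (ENSMUSG00000053110.13, chr9:7931999-8004596, minus strand) 4, and Wwtr1 (ENSMUSG00000027803.14, chr3:57455649-57575910, minus strand) 3. These neighbours set much of what a window held: only 23 of 403 promoter fragments of the Tead2 window and 13 of 336 of the Tead3 window lay within 1.5 kb of a start of the member itself, against 80 of 103 at Tead1 and 101 of 126 at Wwtr1.

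Fragments were densest at Tead2 and Tead3 and sparsest at Wwtr1. The windows held 530 distinct fragments at Tead2, 525 at Tead3, 447 at Tead4, 340 at Tead1, 298 at Yap1 and 173 at Wwtr1, which is 243 per 100 kb at Tead2 and 54.0 per 100 kb at Wwtr1. Distal fragments made up 69.7% of those at Tead1 and 55.0% at Tead4, but 22.5% at Yap1 and 24.0% at Tead2. Of the distal fragments, 189 of 237 at Tead1 lay in the gene body, whereas at Tead2 none of 127 did and at Yap1 5 of 67 did.

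Of the 115 distal sites, 36 lay in an intron of the member gene, 28 in an intron of another gene, 24 touched an exon or UTR and 27 were intergenic. Tead1 accounted for 21 of the 36 sites in its own introns and Wwtr1 for 8. The nearest coding start was that of the member for 28 of 30 distal sites at Tead1, 9 of 15 at Wwtr1, 6 of 13 at Tead4, 3 of 25 at Tead3, 3 of 16 at Yap1 and none of 16 at Tead2. A site held a median of 3.0 distinct fragments, and 34 sites rested on a single one.

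**Figure D1:**
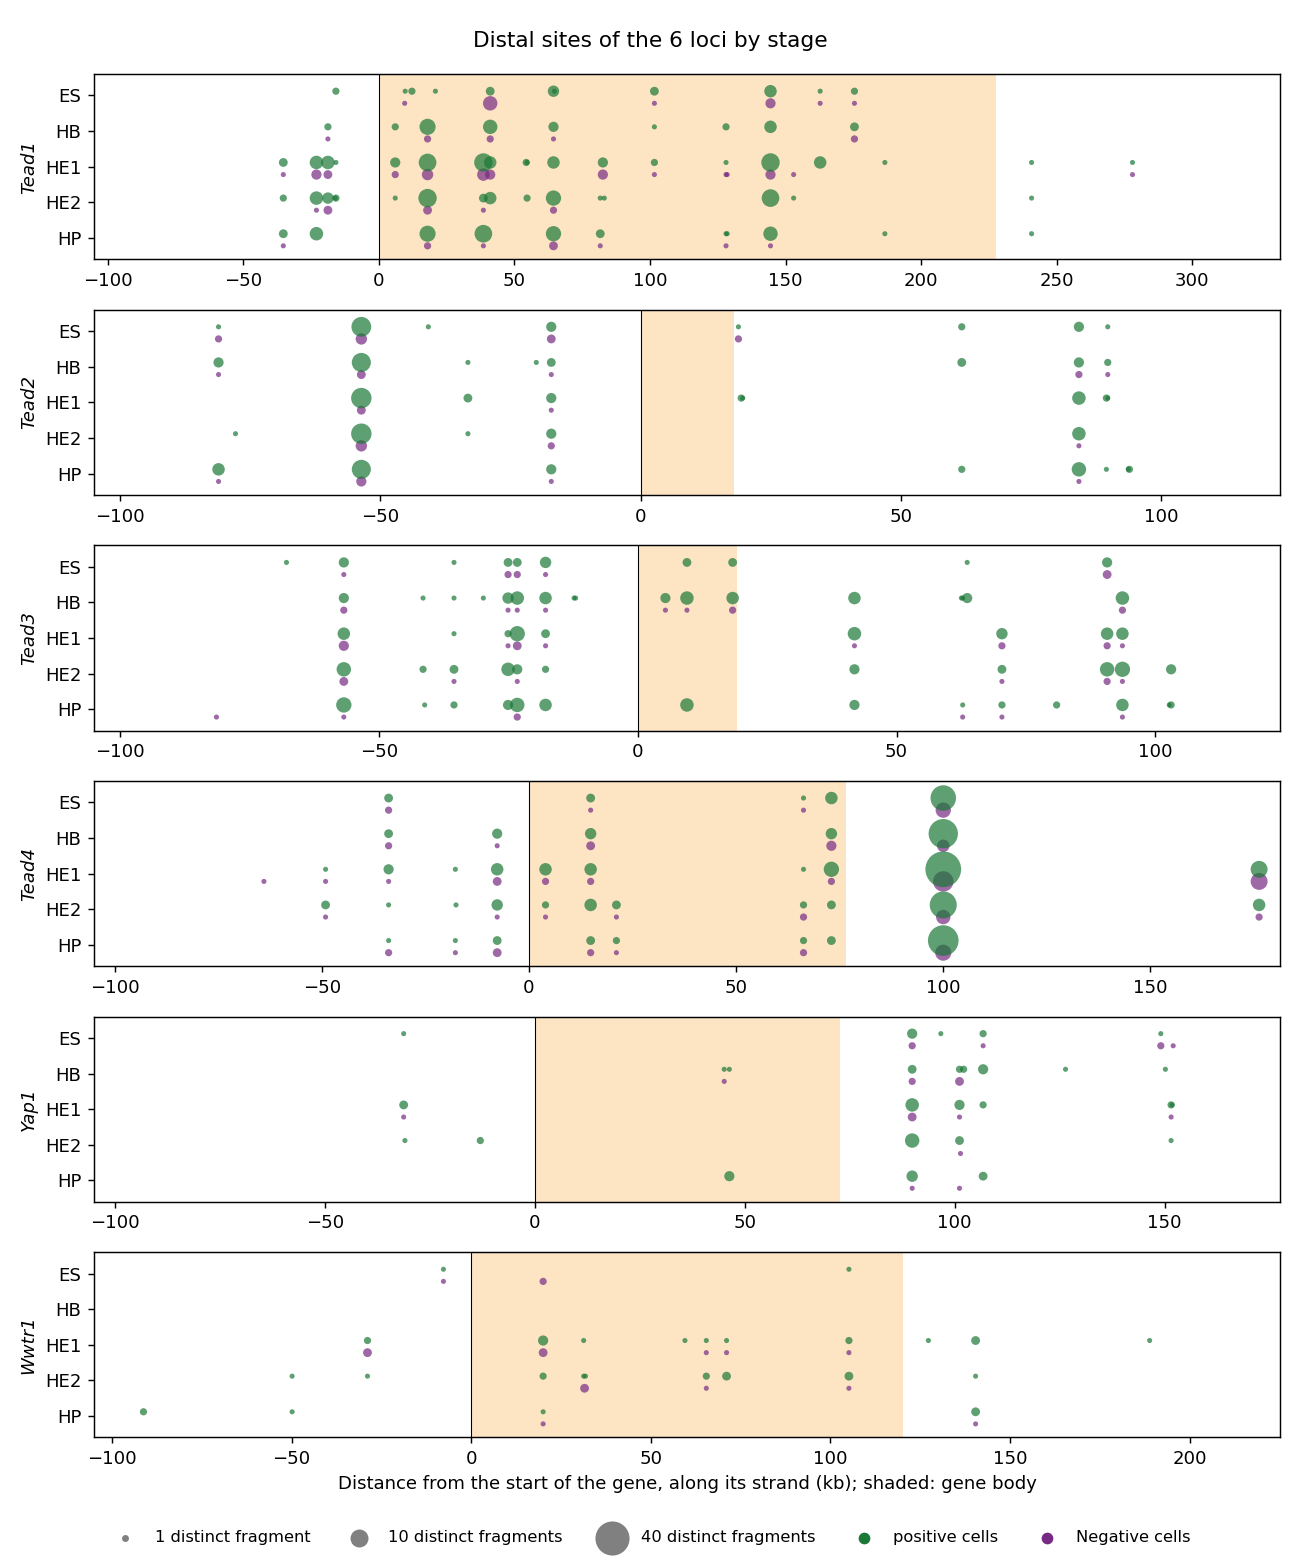
Distal sites of the 6 loci. The x axis is the distance of each site's centre from the start of the gene along its strand in kb, the rows are stages, the disc area is the number of distinct fragments in positive (green) and Negative (purple) cells, and the gene body is shaded. The Wwtr1 row of HB is empty, and the largest discs belong to the Tead4 site 100.1 kb from the start of the gene.

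Tead1, the TEAD gene with the broadest expression in adult tissues, had its distal sites spread along its introns and a region upstream. Positive cells listed 21, 25, 5, 1 and 0 fragments of the locus in replicates 1 to 5 at ES, 39, 22, 7, 1 and 0 at HB, 76, 61, 0, 2 and 1 at HE1, 63, 44, 3, 0 and 0 at HE2, and 64, 14, 0, 0 and 1 at HP. Replicates 1 and 2 thus carried nearly all fragments. Relative to the listed totals these 2 replicates ran from 1.81 to 3.39 per 10000 in positive cells and from 1.67 to 3.86 in Negative cells, so the gates overlapped.

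Pooled over replicates, positive cells listed 27 distal Tead1 fragments at ES, 38 at HB, 91 at HE1, 67 at HE2 and 56 at HP. The share of all fragments that were distal also changed with the stage, from 24.2% in the positive ES set of replicate 1 to 34.7% in that of HE1. Per 10000 distal fragments the locus therefore stood at 5.36 at ES (exact 95% binomial interval 3.53 to 7.80, counting error only), 6.56 at HE1, 6.02 at HE2 and 6.67 at HP (5.04 to 8.66), and the intervals of all 5 stages overlapped. Single sites were less even. The site 38.6 kb into the gene had 0 positive fragments at ES and HB, 13 at HE1, 3 at HE2 and 12 at HP, all in 2 replicates per stage, and the site at -23.0 kb had 0, 0, 7, 7 and 7. Negative cells had 0, 0, 6, 1 and 1 at the first and 0, 0, 4, 1 and 0 at the second. The pDONR lists, from ES to HP, had 5, 10, 108, 84 and 57 fragments over the first and 7, 5, 97, 36 and 36 over the second. In the pSKB lists these were 0, 5, 29, 19 and 8, and 3, 3, 29, 9 and 6. These counts are not corrected for totals, and the part of the plasmid lists was not tested. The site 41.1 kb into the gene had 3, 8, 6, 6 and 0 positive fragments and 8 Negative fragments at ES.

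The Tead1 element printed above lies 64.4 kb into the gene, held 16 distinct fragments and was positive in 12 of 25 sets, with 5, 4, 6, 9 and 9 positive fragments from ES to HP against 0, 1, 0, 2 and 3 in Negative cells. It was listed in 10 High, 6 Medium, 5 Low and 4 Negative libraries, and 1 of its fragments was also in a control list.

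Tead2 is the TEAD gene best known from the early embryo. Its window had 54, 44, 14, 2 and 1 positive fragments in replicates 1 to 5 at ES, 46, 67, 16, 2 and 2 at HB, 126, 67, 2, 7 and 2 at HE1, 90, 50, 5, 1 and 1 at HE2 and 98, 33, 1, 1 and 5 at HP. In replicates 1 and 2 this was 3.40 to 5.50 per 10000 in positive and 2.85 to 4.99 in Negative cells. The promoter site of Aldh16a1 and Pih1d1 in this window held 119 distinct fragments, and that of Tead2 held 23.

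Distal fragments of the Tead2 window were at 5.76 per 10000 distal fragments at ES (3.85 to 8.26), 4.30 at HB, 2.60 at HE1 (1.82 to 3.59), 2.61 at HE2 and 4.52 at HP (3.20 to 6.21). The intervals of ES and HE1 did not overlap. Without the 4 HE1 libraries named above the HE1 value was 3.28 (2.26 to 4.61), which overlaps that of ES. In Negative cells the HE1 value was 0.70 (0.19 to 1.79, from 4 fragments), below the interval of positive cells, and without the 4 libraries it was 0.73 (0.02 to 4.06), which overlaps it. The printed element, at -53.6 kb and 1492 bp from the start of Slc17a7, held 58 distinct fragments in 54 libraries and was even over the stages, with 15, 14, 16, 16 and 14 positive fragments. It was also listed in 14 Negative sets.

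Tead3, a TEAD gene of placenta and other epithelia, had distal fragments at every stage, highest at HB and lowest at HE1. Its positive sets listed 14, 16, 4, 0 and 1 distal fragments in replicates 1 to 5 at ES, 22, 32, 17, 3 and 1 at HB, 27, 22, 0, 1 and 0 at HE1, 37, 21, 2, 0 and 1 at HE2, and 44, 15, 0, 0 and 1 at HP. Per 10000 distal fragments the pooled value was 5.56 at ES (3.69 to 8.03), 8.46 at HB (6.50 to 10.8), 3.24 at HE1 (2.37 to 4.34), 4.85 at HE2 (3.65 to 6.33) and 6.55 at HP (4.93 to 8.52). The HB interval lay above those of HE1 and HE2, and the HE1 value was 3.38 (2.34 to 4.73) without the 4 libraries. These intervals cover counting error only and not the spread between replicates. In replicate 1 the values were 6.47 at HB and 3.38 at HE1, and in replicate 2 they were 9.22 and 3.26. Negative cells were at 4.69 at HB (2.34 to 8.39) and 2.62 at HE1 (1.47 to 4.32), which overlap. Over the Tead3 distal sites the pSKB lists, from ES to HP, had 211, 241, 148, 183 and 144 fragments. The pDONR lists had 697, 708, 715, 602 and 764. The lists differ in size, and their part in the HB value was not tested.

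More distal sites of the Tead3 window had a positive fragment at HB than at any other stage, 17 of 25 (68.0%) against 10 at ES, 9 at HE1, 11 at HE2 and 14 at HP. The 2 sites over the Tead3 gene body with the most fragments were positive at ES and HB and not at HE1 or HE2: the one 18.3 kb from the start had 3, 6, 0, 0 and 0 positive fragments and the one 9.5 kb from the start 3, 7, 0, 0 and 7. The site 70.4 kb downstream of the start, in an intron of Ppard, which encodes a nuclear receptor for fatty acids, went the other way with 0, 0, 5, 3 and 2. The printed element, at -56.7 kb in an intron of Fkbp5, had 4, 4, 6, 8 and 9 positive fragments and was listed in 10 Negative libraries.

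Tead4, known for its part in the trophectoderm, had the distal site with the most fragments of all 6 loci. It lies 100.1 kb from the start of Tead4, held 138 distinct fragments in 54 libraries and had 25, 33, 49, 28 and 36 positive fragments and 9, 6, 16, 8 and 10 Negative fragments from ES to HP. It was listed in 17 Negative sets and 15 positive sets, and its nearest coding start was that of Tspan9, 56593 bp away. Of the 13 distal sites 4 were positive at all stages. Besides this one they were the intronic site 14.9 kb into Tead4, with 3, 5, 6, 6 and 3 positive fragments, a site over a UTR of Tead4 73.1 kb from the start, with 6, 5, 9, 3 and 3, and a site over a coding exon of Tulp3 at -33.8 kb, with 3, 3, 4, 1 and 1.

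Positive cells listed 37, 42, 4, 0 and 0 fragments of the Tead4 locus in replicates 1 to 5 at ES, 36, 49, 17, 4 and 1 at HB, 83, 83, 1, 3 and 0 at HE1, 71, 39, 4, 1 and 0 at HE2, and 71, 28, 0, 3 and 0 at HP. Its distal value ranged from 7.54 per 10000 distal fragments at ES (5.34 to 10.3) to 5.39 at HE2 (4.11 to 6.94), and in Negative cells it ran from 6.13 at ES to 8.63 at HP (5.35 to 13.2). The intervals of positive and Negative cells overlapped at each stage.

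Yap1 had few distal fragments, and 11 of its 16 distal sites lay beyond the 3′ end of the gene, toward Birc3 and Birc2, which encode inhibitors of apoptosis. Positive cells listed 4, 4, 1, 1 and 0 distal fragments in replicates 1 to 5 at ES, 7, 5, 4, 1 and 0 at HB, 14, 7, 0, 0 and 0 at HE1, 12, 4, 0, 0 and 0 at HE2 and 11, 2, 0, 0 and 0 at HP. The pooled value was 1.79 per 10000 distal fragments at ES (0.82 to 3.39) and 2.01 at HB (1.13 to 3.32), against 1.37, 1.35 and 1.43 at HE1, HE2 and HP, all within each other's intervals. Most fragments of the window were promoter fragments, and the Birc2 promoter site, with 105, had more than the Yap1 promoter site, with 40. The printed element, 89.9 kb from the start, was positive at all stages with 4, 3, 7, 8 and 5 fragments, against 2, 2, 3, 0 and 1 in Negative cells.

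Wwtr1 had the fewest distal fragments, and none was listed at HB in any gate or replicate. Positive cells listed 1, 0, 1, 0 and 0 in replicates 1 to 5 at ES, 0 in every replicate at HB, 7, 11, 0, 0 and 0 at HE1, 8, 6, 1, 0 and 0 at HE2, and 6, 1, 0, 0 and 0 at HP. At HB this was 0 of 74491 distal fragments in positive cells, which allows up to 0.403 per 10000, and 0 of 23446 in Negative cells, which allows up to 1.28 per 10000. The value at HE1 was 1.23 per 10000 (0.71 to 1.96, from 17 fragments) and at HE2 1.35 (0.75 to 2.22), both above the HB limit, and at HE1 it was 1.19 (0.62 to 2.09) without the 4 libraries. At ES it was 0.40 (0.05 to 1.43) and at HP 0.83 (0.34 to 1.72). Negative cells had 9 such fragments at HE1 and 5 at HE2, or 1.57 and 2.02 per 10000, and the HE1 value was 2.91 (0.79 to 7.46, from 4 fragments) without the 4 libraries, so the presence at these stages was shared by the gates.

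Over the Wwtr1 distal sites the pSKB list labelled HB had 18 fragments and that labelled HP 19, against 33, 33 and 32 in those of ES, HE1 and HE2. The pDONR lists, from ES to HP, had 106, 62, 259, 139 and 102, and their part in the HB value was not tested. The Wwtr1 sites with most fragments were the printed element in an intron of Tm4sf4, 140.4 kb from the start, with 0, 0, 3, 1 and 3 positive fragments, and the intronic site 20.0 kb into Wwtr1, with 0, 0, 4, 2 and 1 in positive and 2, 0, 3, 0 and 1 in Negative cells. No Wwtr1 distal site was positive at all 5 stages. The Wwtr1 promoter, in contrast, was listed at each stage, with 14, 18, 39, 30 and 16 positive fragments and in at least 1 positive set of 5, 3, 5, 4 and 2 replicates.

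**Figure D2:**
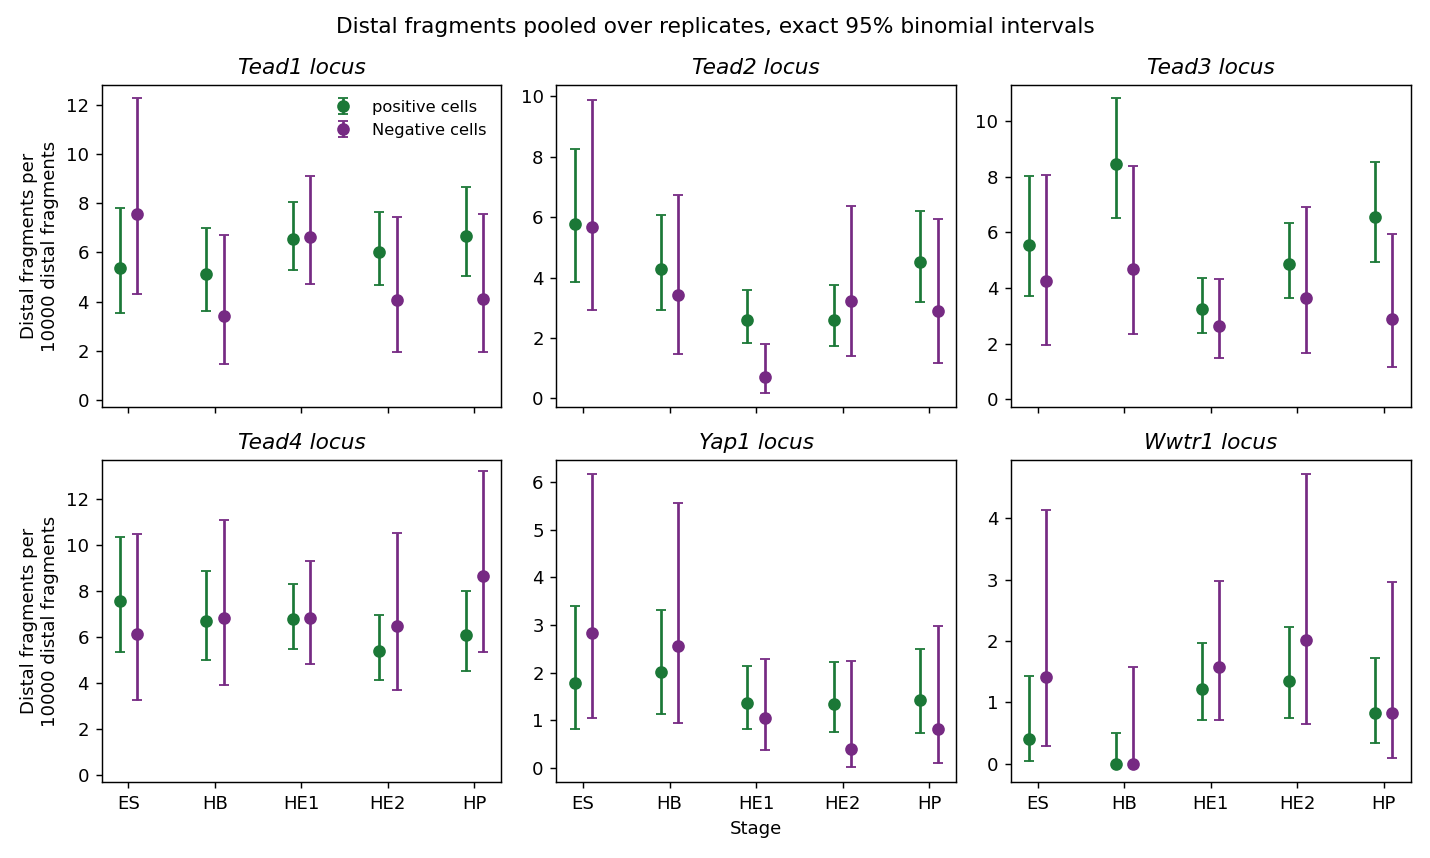
Distal fragments of each locus per 10000 distal fragments of the stage, pooled over replicates, in positive (green) and Negative (purple) cells. Bars are exact 95% binomial intervals, which cover counting error only. Wwtr1 is at 0 at HB in both, and Tead3 in positive cells is at 8.46 at HB and 3.24 at HE1.

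The promoters of the member genes themselves were listed at low values. Pooled over replicates, positive fragments within 1.5 kb of a start of Tead1 numbered 15, 18, 28, 24 and 14 from ES to HP, or 0.75, 0.69, 0.69, 0.75 and 0.56 per 10000 listed. The Wwtr1 promoter was at 0.70, 0.69, 0.96, 0.93 and 0.64 per 10000, the Tead4 promoter between 0.32 and 0.48 and the Yap1 promoter between 0.20 and 0.39. The Tead2 promoter, at 3 to 7 fragments per stage, stood between 0.15 and 0.24, and the Tead3 promoter, at 1 to 4, between 0.04 and 0.20. Within each promoter the intervals of the stages overlapped, which with so few fragments does not show that the values were equal. In the high gates (Medium, High and Medium/High) the Wwtr1 promoter was at 0.74 per 10000 at HE1 (0.48 to 1.10) and in the Low gate at 1.60 (0.93 to 2.57), which overlap.

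**Figure D3:**
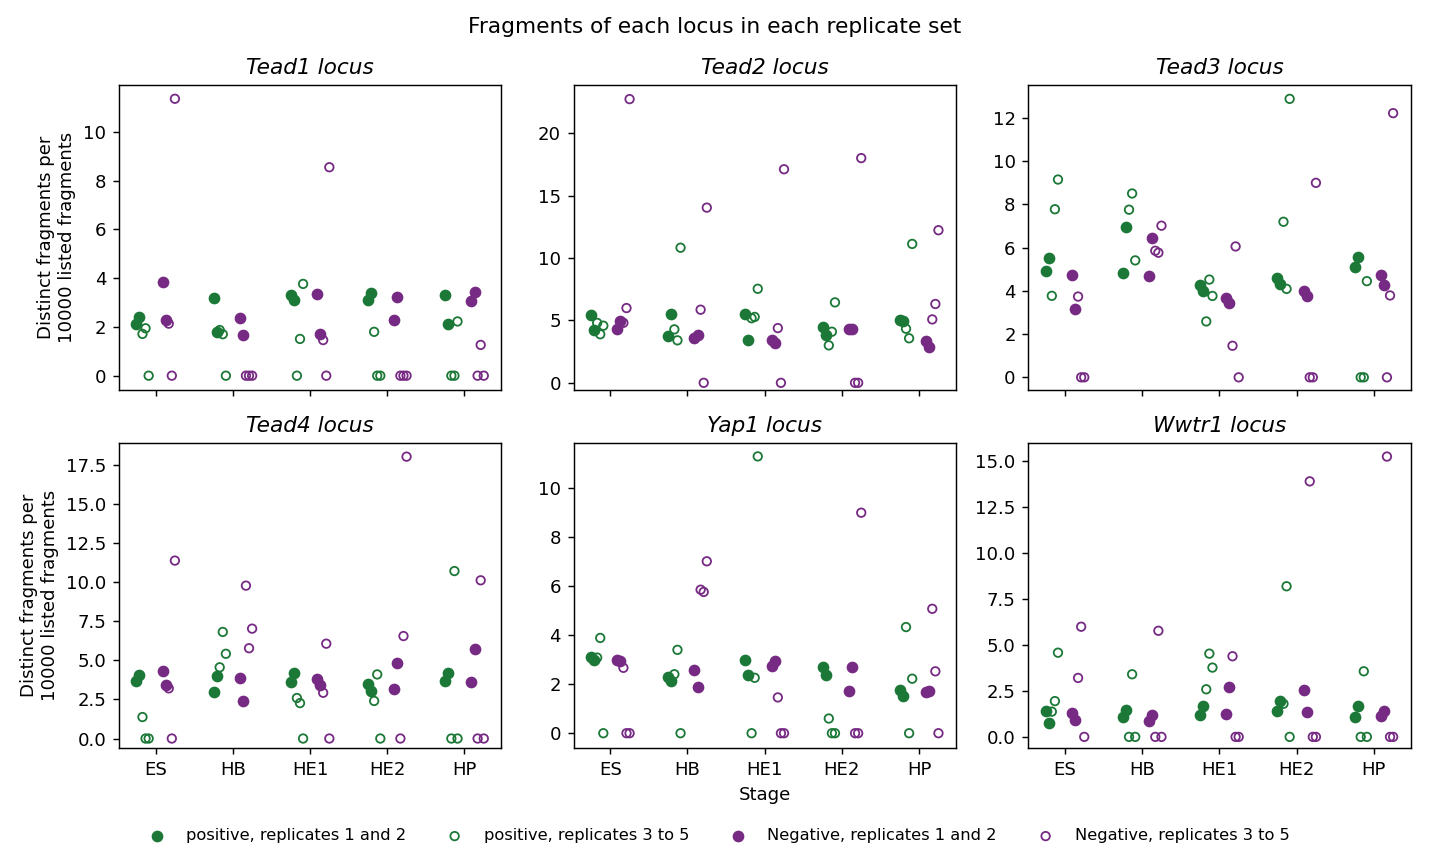
Distinct fragments of each locus per 10000 listed fragments, by stage (x axis) in each of the 5 positive (green) and 5 Negative (purple) sets. Filled points are replicates 1 and 2 and open points replicates 3 to 5, whose small lists give values from 0 to 22.7, the latter being the Tead2 locus in ES Negative cells of replicate 5, where it rests on 2 fragments.

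The number of distal sites with at least 1 positive fragment was read against the same count over all distal sites, since stages differed in their number of fragments. Over the 6 loci, 41 of 115 sites (35.7%) were positive at ES, where 28.9% of all distal sites were, 47 (40.9%) at HB against 36.2%, 62 (53.9%) at HE1 against 51.2%, 57 (49.6%) at HE2 against 48.5% and 48 (41.7%) at HP against 41.3%. The exact 95% interval of the member share, 26.9 to 45.1% at ES, contained the share of all sites at every stage. Positive at all 5 stages were 15 sites (13.0%) against 10.7%, at a single stage 44 (38.3%) against 44.6%, and listed in Negative cells alone 5 (4.35%) against 5.02%.

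Behind these totals the loci went different ways. At HB 17 of 25 Tead3 sites (68.0%) and none of 15 Wwtr1 sites were positive, against 36.2% of all sites. Tead4 had 10 of 13 sites positive at HE1 (76.9% against 51.2% of all sites) and 11 at HE2 (84.6% against 48.5%). Its sites had a median of 9.0 distinct fragments and a median width of 598 bp, against 3.0 and 318 over all members. The part of site size in the Tead4 shares was not tested. Tead4 sites were also often listed in Negative cells, 9 of 13 at HE1 (69.2% against 36.8% of all sites), 7 at HE2 (53.8% against 23.4%) and 12 at any stage (92.3% against 59.8%). The HE1 counts include the 4 libraries that share fragments. Of the 50 Tead4 fragments in the HE1 Negative library of replicate 1, 33 were also in the HE1 Medium library of replicate 2. Without the 4 libraries, HE1 Negative cells listed 8 distal Tead4 fragments and positive cells 69, or 5.83 and 6.87 per 10000 distal fragments. Tead2 had 8 of 16 at ES, HB, HE1 and HP (50.0%), against 28.9%, 36.2%, 51.2% and 41.3% of all sites. At HE2 it had 5 (31.2% against 48.5%). Yap1 went from 8 of 16 at HB (50.0% against 36.2%) to 3 at HP (18.8% against 41.3%). The loci were singled out after these values were seen, and sites in a locus share their neighbourhood, so these shares are given with no test.

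**Figure D4:**
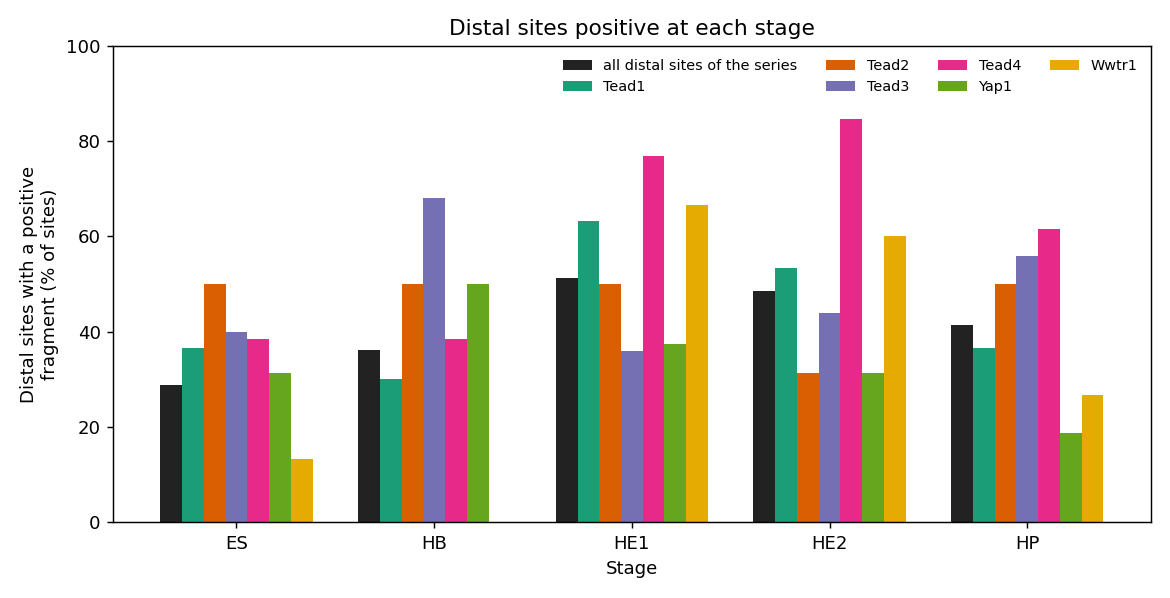
Share of distal sites with at least 1 positive fragment at each stage (x axis), for all 58911 distal sites (black) and for each locus (colours), from 13 to 30 sites per locus. Tead3 stands at 68.0% at HB and Wwtr1 at 0, where all distal sites are at 36.2%.

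Whether a locus was listed more often in positive than in Negative cells was tested at each stage with limma on log2 of the fragments per 10000 listed plus 1, over all coding-gene loci that were listed in 4 or more of the 10 sets compared. No member passed an adjusted p of 0.05, and neither did any of the 17413 to 18039 loci tested, so the share called was 0% in all 5 stages. Each set had the same weight in this fit, small lists included, so a count of 0 does not show that loci were listed equally. At an unadjusted p of 0.05, 197 to 467 loci passed per stage and no member did. The exact permutation test of the mean also called 0, but its smallest possible p of 0.00794 could not pass the adjustment over so many loci unless a large share of them reached it, so that count carries no information. The member with the smallest p was Tead3 at ES, with a mean of 6.22 ± 2.19 per 10000 in positive and 2.33 ± 2.19 in Negative sets (SD, n = 5), a log2 difference of 1.44 (SE 0.73) and an adjusted limma p of 0.999. At HE2 Tead3 was again first, with a difference of 1.23 (SE 0.88), and at HP with -0.63 (SE 0.82), whose adjusted limma p were 0.992 and 1.00. At HB and HE1 it was Yap1, with -0.93 (SE 0.72) and 0.78 (SE 0.77), with adjusted limma p of 0.999 and 1.00. The median difference of the 6 members was 0.52 at HE1, where that of all loci was 0.13, and -0.21 at ES, where it was 0.17. The directions at HB, HE1 and HP turned under at least 1 other setting.

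The high gates were compared with the Low gate in the same way. Again no member and none of the 16331 to 17859 loci passed, a share of 0% at each stage, while 107 to 354 loci had an unadjusted p under 0.05. In log2 all 6 members stood higher in the high gates at HB, with a median difference of 0.58 beside 0.20 over all loci. The plain mean of Yap1 went the other way, at 2.34 per 10000 in the high and 4.14 in the Low sets (log2 difference 0.05). Pooled, Tead1 was at 2.97 per 10000 listings in Low, 2.46 in Medium and 2.02 in High, and Wwtr1 at 1.75, 0.74 and 1.21. Tead2, Tead3 and Tead4 were higher in Medium and in High than in Low, and Yap1 in Medium alone. Tead3 led, with 5.35, 7.68, 8.0, 9.65 and 10.1 per 10000 in the high sets of replicates 1 to 5 and 3.38, 4.77, 0, 3.59 and 0 in the Low sets, which did not overlap. The share of all loci called in this comparison was 0%. The log2 difference was 1.80 (SE 0.81, 95% interval 0.21 to 3.38) with an unadjusted p of 0.026 and an adjusted limma p of 0.995. In replicates 1 and 2 alone the difference was 0.56. The sets of replicates 4 and 5 rest on at most 4 fragments each, and the Low set of replicate 3 had 1240 listed fragments. Tead3 also had the smallest p at ES (-0.86, SE 0.68), HE1 (1.40, SE 0.83) and HE2 (1.60, SE 0.99), and Tead2 at HP (-0.82, SE 0.90), with adjusted limma p from 0.988 to 1.00. In replicates 1 and 2 alone these Tead3 differences were -0.091, 0.29 and 0.079, and without replicate 5 the one at ES was -0.12.

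Positive cells of adjacent stages were compared to ask at which step a locus changed. No member passed between any pair, nor did any of the 18319 to 18624 loci, which is 0% in all 4 comparisons, with 431 to 786 loci at an unadjusted p under 0.05. From ES to HB the smallest p among members was that of Tead4, with means of 1.83 ± 1.96 and 4.75 ± 1.45 per 10000 (SD, n = 5), a log2 difference of 1.32 (SE 0.57), an unadjusted p of 0.0257 and an adjusted limma p of 1.00. In replicates 1 and 2 alone, where Tead4 stood at 3.70 and 4.07 at ES and 2.96 and 4.02 at HB, the difference was -0.13. From HB to HE1 Tead4 came first again (-0.86, SE 0.53), from HE1 to HE2 Yap1 (-0.95, SE 0.72) and from HE2 to HP Tead3 (-1.26, SE 0.66), with adjusted limma p of 0.996, 0.999 and 0.999. When sets were weighted by their listed fragments, Tead3 was called from HB to HE1 with -0.47 (SE 0.15, adjusted limma p 0.044), where 747 of 18455 loci were called. In the main fit, with equal weights, the Tead3 difference for this step was -0.66 (SE 0.42, adjusted limma p 0.996), and no locus was called.

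For single sites, 8 to 21 of the 115 distal member sites and 14 to 20 of the 34 promoter member sites had fragments in enough sets to be tested per stage. None passed in limma. Over all distal sites the share called was 0% at ES, HB, HE2 and HP and 0.013% at HE1 (1 of 7706, which was no member), and over all promoter sites it was 0% at each stage. Unadjusted, 1 of 20 member promoter sites tested at HE1 had a limma p under 0.05, beside 31 of all 10102. At the other stages no member promoter site did, beside 32 to 143 of 7928 to 10080 promoter sites. No distal member site did at any stage. Over all distal sites it was 73 of 4151 at ES, 40 of 5721 at HB and 1 to 8 at the other stages.

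The rest of the Hippo pathway was read through 26 genes, from the kinases Stk3, Stk4, Lats1 and Lats2 and the scaffold Sav1 to the TEAD partners Vgll2, Vgll3 and Vgll4 and the target genes Ankrd1, Ccn1 and Ccn2. From 24 to 26 of these loci were tested per comparison and none passed in either direction, as for all loci. Unadjusted, 2 had a p under 0.05 in positive against Negative cells at HB and from HE1 to HE2, and at most 1 elsewhere. Over all loci it was 467 of 17983 and 431 of 18624 in these 2 comparisons. In positive against Negative cells their median log2 difference was 0.40 at ES, 0.37 at HB, 0.10 at HE1, 0.31 at HE2 and 0.06 at HP, beside 0.17, 0.16, 0.13, 0.25 and 0.08 over all loci.

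All 6 loci were present in every plasmid list. In the pDONR lists, which held from 5657666 to 8828555 distinct fragments, Tead2 was at 3.87 to 4.83 per 10000, Tead3 at 3.54 to 4.49, Tead1 at 2.38 to 3.64, Tead4 at 2.73 to 3.15, Yap1 at 1.72 to 2.24 and Wwtr1 at 1.07 to 1.56. The pSKB lists gave nearly the same values, for example 4.07 to 5.17 at Tead2 and 1.14 to 1.46 at Wwtr1. Between stages the loci moved apart: Tead1 was at 3.70 per 10000 in the pSKB list labelled HE1 and 2.37 in that labelled HP, with exact intervals that did not overlap, and Tead3 was at 3.63 and 4.52 in the same lists. With 1 list per stage these differences have no replicate check.

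Of the 2313 distinct member fragments, 80.1% were identical to a fragment of some plasmid list, beside 80.5% of all sorted fragments. At the level of single loci the share ran from 76.3% at Wwtr1 to 82.6% at Tead2. The methods kept sorted fragments only if present in a plasmid list, so a high share was set by that filter. Why the other fragments had no match was not tested. Of the 115 distal sites, 97 had a fragment in all 5 pDONR lists and 60 in all 5 pSKB lists, and 112 held a sorted fragment identical to a plasmid fragment. Of the fragments in the pSKB list labelled HE1, 10.6% of those at Tead2, 8.59% at Tead1 and 7.94% at Wwtr1 were also listed in sorted cells. In the list labelled HB the shares were 1.98%, 0.83% and 1.79%. The control lists of wild-type cells held 2 member fragments each at Tead1, Tead2 and Tead4, 1 at Wwtr1 and none at Tead3 or Yap1. Per the methods, sorted fragments had been filtered against these controls.

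**Figure D5:**
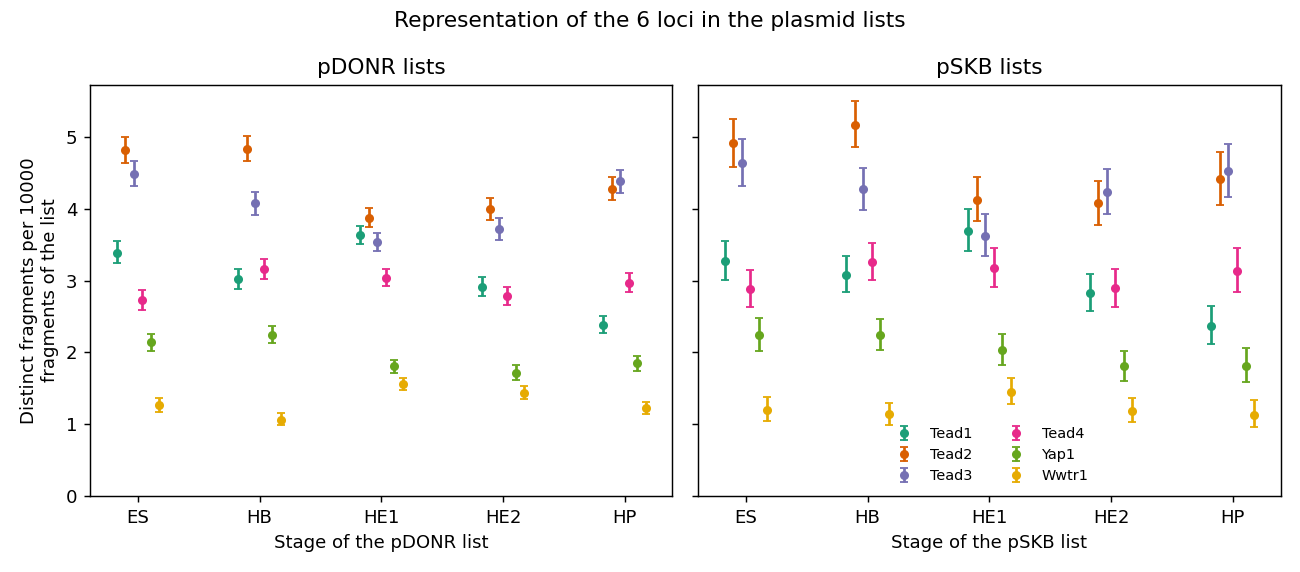
Distinct fragments of each locus per 10000 fragments of the list, in the pDONR lists (left) and pSKB lists (right) by the stage in the label (x axis), 1 list per vector and stage. Bars are exact 95% binomial intervals. Wwtr1 is lowest in every list, between 1.07 and 1.56.

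The TEAD letters CATTCC were searched on both strands in the 300 bases around the centre of each site. These windows held them at 29 of 115 member distal sites (25.2%) and at 19.6% of all 58911 distal sites. The window was fixed, while the median site width was 318 bp over all members, 232.5 at Yap1 and 283 at Wwtr1. In narrower sites a match can lie outside the recovered fragments, and wider sites were read in part, so the counts here are of windows. By locus the count was 10 of 30 at Tead1, 7 of 25 at Tead3, 5 of 16 at Yap1, 5 of 15 at Wwtr1, 2 of 13 at Tead4 and 0 of 16 at Tead2. Of the other letters, TGTGGT was found in 31 member sites and 25.5% of all sites, with 5 of 30 at Tead1 and 7 of 16 at Yap1. AGATAA was in 21.7% of member and 18.2% of all sites, TGANTCA in 15.7% and 16.1%, and CCGGAA in 6.96% and 5.55%. At Tead1 AGATAA was found in 11 of 30 sites. These are matches of letters and say nothing of whether a factor was bound.

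To show where TEAD letters sat in recovered elements of the windows, the 60 bases around the match are given. They are from the site with a match that was positive in the most sets of each locus, Tead2 having none. Letters are the plus strand of GRCm38.p6, and the capitals are the match, which is CATTCC read on the minus strand in all 5. Matches to the other motifs are not marked here. The Tead4 stretch also holds the TGANTCA letters, and the Tead1 and Tead3 stretches hold CCGGAA, which at Tead3 overlaps the capitals.
Tead1 locus, chr7:112656237-112656296: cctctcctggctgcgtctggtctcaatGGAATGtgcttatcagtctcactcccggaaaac
Tead3 locus, chr17:28368597-28368656: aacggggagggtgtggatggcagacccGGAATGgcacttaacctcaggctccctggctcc
Tead4 locus, chr6:128285908-128285967: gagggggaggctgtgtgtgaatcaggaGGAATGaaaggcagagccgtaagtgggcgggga
Yap1 locus, chr9:7903313-7903372: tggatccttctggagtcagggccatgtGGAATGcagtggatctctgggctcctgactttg
Wwtr1 locus, chr3:57470844-57470903: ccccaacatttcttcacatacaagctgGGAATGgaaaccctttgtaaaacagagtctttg
The Tead3 site, intergenic and at -17.8 kb, was positive in 12 of 25 sets and listed in 4 Negative sets. The Tead4 site, in an intron 14.9 kb from the start, was positive in 11 sets and Negative in 7. The Tead1 site, in an intron of 2310014F06Rik, was positive in 6 sets. From ES to HP it had 0, 0, 7, 7 and 7 positive fragments, against 0, 0, 4, 1 and 0 in Negative cells. A second site with a match, at -18.7 kb in an intron of the same gene, was also positive in 6 sets, with 0, 2, 7, 5 and 0, and had fewer distinct fragments (12 against 17). The Yap1 site, intergenic and 101.1 kb from the start, and the Wwtr1 site, in an intron of Wwtr1, were positive in 5 and 3 sets.

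Finally, the gene loci on other chromosomes whose values over the 20 sets of replicates 1 and 2 were most like those of each member were listed. The points share libraries and depth, and the correlations are descriptions. Pearson's r was 0.84 between Tead1 and Abcb9 and 0.81 with Lclat1, 0.77 between Tead2 and Pklr and 0.74 with Tmem41a, 0.83 between Tead3 and Elavl1 and 0.81 with Ccl25, 0.81 between Tead4 and both Urm1 and Cercam, 0.87 between Yap1 and D930020B18Rik and 0.85 with Rmnd5b, and 0.78 between Wwtr1 and AC115631.1 and 0.76 with Acvrl1. None of these is a member of the Hippo list. They were the highest of 13701 to 14319 candidates.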

How the data were processed

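The authors trimmed reads with Trim Galore, aligned them with Bowtie2 to mm10, filtered them with SAMtools and joined pairs into single intervals with bedtools, per the labels and the study's methods. HOMER is also named. Per the methods, fragments of sorted cells were filtered against the wild-type controls, kept if present in a plasmid list, limited to open-chromatin peaks and split into distal and promoter files. The sources used here do not say whether each stage was limited to its own peaks. The deposited sorted files list distinct intervals with no read number. The deposited plasmid and control files give a read count per interval. The plasmid read counts entered no test. Read counts come from PCR without molecular identifiers, so intervals and limits (3 counts for a count of 0) cover counting error only.

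From these lists, starts of sorted intervals were moved by 1 bp, after which 80.3% of 20000 sampled fragments were identical to a plasmid fragment against 3.45% as deposited. Loci were counted for 21924 protein-coding genes, and values were scaled per 10000 listed fragments with 1 added before log2. Loci and sites listed in 4 or more of 10 sets were tested with limma 3.58.1 in R 4.3.3 (lmFit, eBayes with a trend, Benjamini-Hochberg over all tested, threshold 0.05). The fit was run on simulated counts with counting error and no other spread between replicates, so that run does not show its power on these lists. No count model was used because the sorted lists hold no counts. The members, the Hippo list and the tests were chosen with earlier results of these data known. All 6 members are described. The member with the smallest p in each of 14 comparisons, the distal site positive in the most sets of each locus (ties by distinct fragments), and the 2 loci with the highest correlation are named by rule. Other sites and the loci singled out for their stage profile were chosen after their values were seen, as were the sites shown for a TEAD match. Same-numbered sets were checked for pairing. The correlation of their deviations was over 0.1 in all 5 pairs in 2 of 14 comparisons. It ran from 0.14 to 0.33 for the high against Low gates at ES and from 0.14 to 0.29 for HB against ES. In most other comparisons 4 of 5 pairs were over 0.1. The highest value, 0.41, was in positive against Negative cells at HE2, and the lowest, -0.02, in those at HE1. Alternatives were other pseudocounts, filters, windows, fragment kinds, weights, gates and tests, the replicate number as a block, and fits without each replicate.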

Additional observations from a re-analysis of the deposited data

Results flagged for a closer look

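Each group of 5 replicate sets was examined for a set far from the other 4 (gap over range above 0.71). This was so in 11 of 60 groups. The cut-off flags about 1 in 20 groups of normally distributed values with equal spread. The sets here differ widely in size, so that rate does not apply and the 11 are not read as an excess. Of these sets, 9 were of replicate 4 or 5 and 10 rested on at most 3 fragments, so their values turn on single fragments.

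At the Tead2 locus the far sets were all of replicate 5. They stood at 22.7 per 10000 listed fragments in ES Negative cells, 17.1 in HE1 Negative cells, 18.0 in HE2 Negative cells and 10.8 in HB positive cells, each from 2 fragments, and at 11.1 in HP positive cells from 5. At Yap1 they were replicate 5 of ES positive cells, at 0, and of HE1 positive cells, at 11.3 from 3 fragments. At Wwtr1 they were replicate 4 of HB Negative cells at 5.77 and of HE2 positive cells at 8.19, and replicate 3 of HE2 Negative cells at 13.9 and of HP Negative cells at 15.2.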

How the results depend on the processing

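The count of members called stayed at 0 in 227 of 228 recomputations of the locus tests. The exception was the weighted fit of HE1 against HB, which called 1 member, Tead3. The 14 recomputations with the exact permutation test had little chance of a call, since its smallest p is 0.00794. The count of member sites called stayed at 0 in all 80 recomputations. The difference of the member with the smallest p kept its direction in 208 of 220 recomputations. With distal fragments only, Yap1 in positive against Negative cells at HB turned to 0.049 and Tead2 in high against Low gates at HP to 0.64. With weighted sets, Tead3 in positive against Negative cells at HP turned to 0.19, Tead2 at HP to 0.18, Tead4 from HB to HE1 to 0.035 and Tead3 from HE2 to HP to 0.10. With replicates 1 and 2 only, Yap1 at HE1 turned to -0.064, Tead3 at HP to 0.21, Tead2 at HP to 0.52, Tead4 from ES to HB to -0.13, Tead4 from HB to HE1 to 0.14 and Tead3 from HE2 to HP to 0.22. The cause was not tested. With the replicate block the count of members called stayed at 0 in all 14 comparisons, so the pairing changed no call. Of 115 distal sites, 41 were positive at ES, but 24 with at least 2 positive fragments and 22 with positive fragments in at least 2 replicates, a rule that also moved HE2 from 57 to 31 and HP from 48 to 29. Leaving out 1 replicate in turn gave 33 to 41 sites at ES, 40 to 47 at HB, 52 to 62 at HE1, 40 to 57 at HE2 and 30 to 48 at HP, the 30 being without replicate 1. Replicates 3 to 5 list 504 to 20718 fragments per library, so a member there rests on few fragments.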
